A study of Mus musculus with 12 samples.

Results

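The RNA and proteins described here are 7SK, a small nuclear RNA, the proteins that bind it, and P-TEFb, the kinase it holds. They were taken by gene name as 7 of the 29937 genes in the deposited table: Rn7sk (7SK RNA itself), Hexim1, Larp7, Mepce, Cdk9, Ccnt1 and Ccnt2. All 7 reached 1 FPKM (fragments mapped to a gene, scaled to transcript length and library size) in at least 3 libraries and were therefore among the 12036 genes tested. The set was chosen by the Rn7sk values, which are high in Oxa, so every member value for Oxa against PBS, and every Rn7sk value that involves Oxa, is a description without a test.

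The study sequenced RNA from 4T1, a mouse mammary carcinoma line, labelled wild type in all groups, in 4 groups of 3 libraries: PBS (the control, whose treatment label reads DMSO), APAP, Oxa and OAP2, each named for its treatment. The labels give no dose or time. The sample labels call the material an adherent cell line, whereas the design text speaks of cell derived xenografts, and the labels do not say whether the 3 libraries of a group are separate cultures or animals. The libraries held 64071751 to 71500487 counts. In such bulk RNA, fewer cells of a type and less RNA per cell cannot be told apart.

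The epithelial markers of the line were high in all libraries (mean log2(FPKM + 1) over 8 genes of 6.87 to 7.22, with Epcam at 90.16 to 119.88 FPKM in PBS). PBS 2 (replicate 2 of PBS) stood apart: its 5 red blood cell markers summed to 230 FPKM and its 6 neutrophil markers to 66.4 FPKM, against at most 0.37 and 0.54 FPKM in the other 11 libraries. Macrophage markers summed to 6.30 FPKM in PBS 2 and to 7.39 to 15.2 FPKM elsewhere. Most of that sum was Cd68 (5.74 FPKM in PBS 2), the 1 tested of the 6 markers. Fibroblast markers summed to 2.55 FPKM in PBS 2 and to at most 1.79 elsewhere. Of these, Col1a1, Col1a2, Col3a1, Dcn and Lum were each highest in PBS 2, at low levels, and Pdgfra (0.61 FPKM) was not. Endothelial markers summed to at most 0.09 FPKM. B cell markers summed to 0.39 FPKM in PBS 2 and to at most 0.17 elsewhere. The 1 T cell marker in the table read 0.02 FPKM in PBS 2 and 0 elsewhere. PBS 2 also had the lowest Rn7sk and the highest Larp7 of all libraries, so values without it are given beside the results on PBS that it moves most. The part of these other cells in any result was not tested.

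RNA polymerase II pauses soon after it starts a gene, and P-TEFb, a pair of the kinase CDK9 and cyclin T1 or T2, releases it by phosphorylating the polymerase and its pausing factors. In the nucleus much of the P-TEFb is held inactive on 7SK RNA, a transcript of RNA polymerase III: MEPCE caps its 5′ end, LARP7 binds its 3′ end, and HEXIM1 bound to the RNA inhibits the kinase. 7SK ends in a run of U and has no poly(A) tail.

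The ends of 7SK are shown because they hold the sites that these proteins recognise and the end that the library selection reads. Rn7sk lies at chr9:78175303-78175633 (GRCm38, minus strand), a single transcript of 331 bases annotated as a non-coding RNA. The sequences below are from the GENCODE M21 transcripts, 5′ to 3′, written with T for U. Capitals mark GATC, the DNA spelling of the GAUC repeats known to bind HEXIM1, in the first 120 bases, and the final run of T, where LARP7 is known to bind, in the last 60 bases (272 to 331).

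Rn7sk, 5′ stretch: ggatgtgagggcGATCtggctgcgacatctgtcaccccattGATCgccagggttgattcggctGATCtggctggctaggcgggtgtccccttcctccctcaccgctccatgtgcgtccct
Rn7sk, 3′ stretch: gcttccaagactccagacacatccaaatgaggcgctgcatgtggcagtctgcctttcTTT

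GATC was found 3 times in the whole transcript, at bases 13 to 16, 42 to 45 and 64 to 67 from the 5′ end. GATC reads the same on both strands. The match describes letters and is not a measurement of binding. The transcript ends in 3 T, and its longest run of A is 3 bases, whereas the libraries were made from RNA purified on oligo(dT) beads. The Rn7sk values therefore count the part of 7SK that was carried through a selection for poly(A), and total 7SK was not measured.

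Rn7sk stood higher in every Oxa library than in any PBS or APAP library. In PBS it read 7.33, 3.10 and 7.88 FPKM in replicates 1 to 3, a mean of 6.10 ± 2.62 (SD, n = 3). In Oxa it read 18.6, 23.4 and 13.8 FPKM, a mean of 18.6 ± 4.80 (n = 3). Oxa stood 3.07-fold above PBS, a log2 difference of 1.62 ± 0.42 (SE, edgeR). Leaving out 1 library at a time moved it between 1.30, without PBS 2, and 1.82.

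In APAP, Rn7sk read 6.43, 8.67 and 7.02 FPKM (7.37 ± 1.16, n = 3), inside or just above the range of PBS. The APAP to PBS difference of 0.32 ± 0.42 (95% interval -0.58 to 1.22) was not called, with an adjusted p of 0.848 by edgeR's quasi-likelihood test with Benjamini-Hochberg adjustment over all 12036 genes. Without PBS 2, which held the low value of 3.10, it was 0.00151, and without APAP 2 it was 0.17, while without PBS 1 or PBS 3 it was 0.49 or 0.52, none called. This test and this adjustment, with a call at an adjusted p below 0.05, stand behind each adjusted p that follows unless another tool is named.

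In OAP2, Rn7sk read 8.36, 22.7 and 9.06 FPKM (13.4 ± 8.07, n = 3). OAP2 2 lay in the range of Oxa, and OAP2 1 and OAP2 3 lay just above the highest PBS library. The groups OAP2 and PBS did not overlap, yet the difference of 1.15 ± 0.42 (interval 0.24 to 2.05) did not pass, with an unadjusted p of 0.0167 and an adjusted p of 0.132. Without OAP2 2 it was 0.52 (adjusted p = 0.531) and without PBS 2 it was 0.83 (0.184), while DESeq2 called it (1.15, adjusted p = 0.0444). The p-values of Rn7sk against PBS, here and for APAP, use the same PBS libraries as Oxa against PBS, on which Rn7sk was chosen. They are not independent of that choice. Against APAP the OAP2 difference was 0.83 ± 0.42 (interval -0.07 to 1.73, adjusted p = 0.362), and 0.20 without OAP2 2 (0.838). Against Oxa it was -0.47 ± 0.41, with overlapping groups. It was -1.10 without OAP2 2, and -0.22, -0.26 and -0.23 without OAP2 1, OAP2 3 and Oxa 2.

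Ordered by mean, Rn7sk ran Oxa, OAP2, APAP, PBS, and each neighbouring pair in that order overlapped. The estimated biological coefficient of variation, edgeR's measure of the spread between replicates, was 35.8% for Rn7sk and 8.40% (Cdk9) to 14.7% (Hexim1) for the other 6 genes, beside 18.1% over all genes. In APAP alone Rn7sk (SD 15.7% of the mean) was no more spread than Mepce (16.7%). The highest library was 7.54-fold above the lowest for Rn7sk, and 1.36-fold (Ccnt1) to 1.91-fold (Ccnt2) for the others. The counts behind Rn7sk ran from 83 in PBS 2 to 620 in OAP2 2.

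Other RNA polymerase III transcripts without a poly(A) tail were high in the same Oxa and OAP2 libraries as Rn7sk. Rn7s1 and Rn7s2 are near-identical genes of 7SL, the RNA of the signal recognition particle, and reads between them cannot be assigned with certainty, so they are summed. The 7SL sum was 25.6, 11.0 and 4.47 FPKM in PBS, 26.2, 16.6 and 20.3 in APAP, 39.8, 87.1 and 30.3 in Oxa, and 13.8, 42.9 and 13.3 in OAP2. As for Rn7sk, replicate 2 was the highest library within Oxa and within OAP2, and all 3 Oxa libraries stood above all PBS libraries.

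Rmrp, the RNA of the RNase MRP enzyme, had the library order of the 7SL sum within Oxa and within OAP2. Rn7sk had that order in Oxa, but in OAP2 it shared only the highest library, replicate 2. Rmrp read 2.51, 0.68 and 0.29 FPKM in PBS and 2.89, 2.04 and 2.73 in APAP. In Oxa Rmrp read 4.37, 12.4 and 3.40 FPKM, and in OAP2 1.71, 6.76 and 0.91. Oxa against PBS stood at 2.50 ± 0.81 for Rmrp (adjusted p = 0.0658) and at 1.95 ± 0.62 for Rn7s2 (0.0612), neither called, and without Oxa 2 at 1.68 (0.269) and 1.34 (0.250). Without PBS 1 both passed (3.68, adjusted p = 0.0360, and 2.78, 0.0303). In OAP2 against PBS, Rn7s2 stood at 0.79 (adjusted p = 0.511) and at -0.01 without OAP2 2.

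Of the 15 RNAs listed as lacking a poly(A) tail, only Rmrp, Rn7s1 and Rn7s2 reached the filter of 1 FPKM in 3 libraries, and the edgeR test called 0 of these 3 in each of the 6 comparisons. In Oxa against APAP edgeR on only the 6 libraries compared called Rn7s1 (1.31, adjusted p = 0.0107) and Rn7s2 (1.27, 0.0119), and with the replicate number as a block it called Rn7s2 in Oxa against PBS (1.97, 0.0491). In Oxa against PBS all 3 had an unadjusted p below 0.05 and DESeq2 called 3 and limma 0; in the other comparisons 0 had such a p and DESeq2 and limma called 0. Across the 12 libraries, log2 CPM (counts scaled to library size) of Rn7sk and of Rmrp correlated at r = 0.75, and of Rn7sk with Rn7s1 and Rn7s2 at 0.71 and 0.72. These are descriptions over 12 libraries that share groups and preparation. The other sets of RNA without poly(A) did not follow as sums, and most of their genes were below the filter. The 130 small nucleolar and Cajal body RNAs (44 at the filter) summed to 143 to 230 FPKM in Oxa and 187 to 229 in PBS, lowest in Oxa 2. The 9 replication-dependent histone genes (1 at the filter) summed to 2.56 to 4.18 in Oxa and 2.02 to 5.91 in PBS. Of the listed RNAs below the filter, Rpph1 (0.47 to 0.90 FPKM in Oxa, 0.09 to 0.30 in PBS) and Scarna2 were higher in every Oxa than in any PBS library. Scarna13 was lower (0.16 to 0.51 in Oxa, 0.71 to 2.91 in PBS). Carry-over of RNA without poly(A) into a library and a change of 7SK in the cells cannot be told apart in these data.

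The level of Rn7sk relative to 7SL within each library was looked up after these values had been seen and has no test. Rn7sk per 7SL sum was 0.287, 0.282 and 1.76 in PBS, 0.246, 0.523 and 0.345 in APAP, 0.468, 0.268 and 0.455 in Oxa, and 0.604, 0.529 and 0.683 in OAP2. Oxa 1 and Oxa 3 lay above PBS 1 and PBS 2 and below PBS 3, and Oxa 2 lay just below all PBS libraries. PBS 3, with a 7SL sum of only 4.47 FPKM, was the highest of all 12 libraries. All OAP2 libraries lay above all Oxa libraries and, narrowly for APAP 2, above all APAP libraries.

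**Figure D1:**
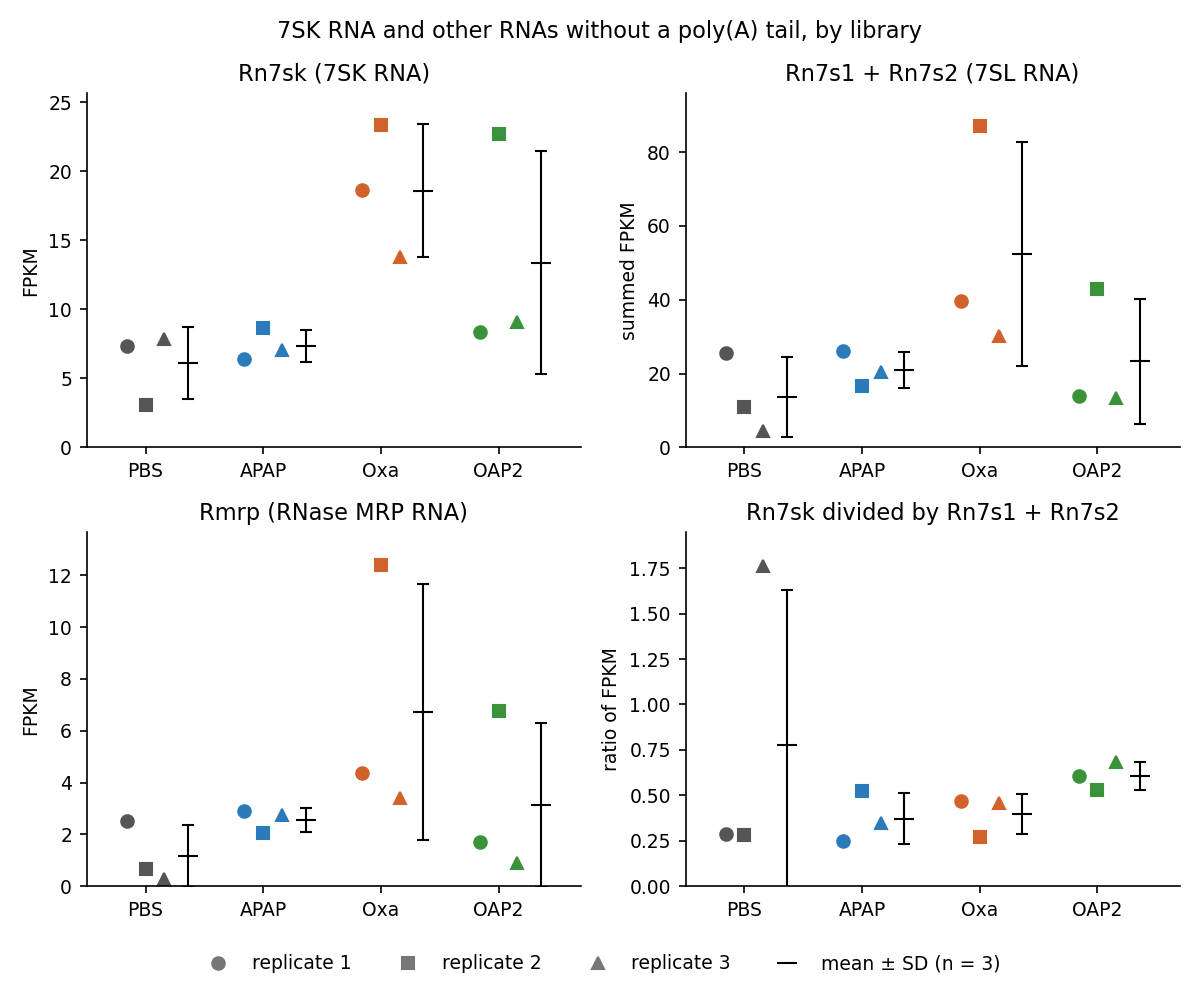
FPKM of Rn7sk, of the 7SL sum (Rn7s1 and Rn7s2) and of Rmrp, and the ratio of Rn7sk to the 7SL sum (vertical axes), in each library by group; the shape of a point gives the replicate, and bars give the group mean and SD (n = 3), ending at the axis where they would pass below 0. Oxa libraries of Rn7sk lie between 13.8 and 23.4 FPKM against 3.10 to 7.88 in PBS, and replicate 2 is the highest in Oxa and in OAP2 for Rn7sk, 7SL and Rmrp.

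Near-identical copies could share reads with Rn7sk. A search of the GENCODE transcripts found 11 other genes with at least 90% identity over at least 200 bases, and 4 of them are in the table. Gm24447, identical to 7SK over 241 bases, read 1.39, 0.26 and 0.77 FPKM in PBS and 3.80, 4.75 and 2.37 in Oxa. In OAP2 it read 1.29, 3.35 and 1.73. Gm26315, 99.6% identical over 238 bases, read 2.89, 4.39 and 2.03 in Oxa and 1.12, 2.97 and 1.70 in OAP2. Both followed the order of Rn7sk within Oxa and within OAP2, at a lower level, so how reads were split among Rn7sk and these copies is uncertain. Gm25580 (0.12 to 1.21 FPKM) had another order, and Gm26035 reached at most 0.09 FPKM.

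The proteins of the 7SK particle did not move as a group. Mepce was the only one of the 3 with a call, higher in OAP2 than in PBS. Hexim1 and Larp7 had no call in any comparison that tested them. Oxa against PBS had no test for the members.

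Hexim1, the inhibitor of the kinase (chr11:103116231-103119725, plus strand), had the lowest mean of the 7 genes per length in every group. It read 2.96, 3.62 and 3.59 FPKM in PBS (3.39 ± 0.373, n = 3), 3.22, 2.80 and 3.21 in APAP (3.08 ± 0.240), 3.55, 3.31 and 3.24 in Oxa (3.37 ± 0.163), and 4.66, 3.53 and 3.21 in OAP2 (3.80 ± 0.762). OAP2 1 was the highest library, and the other OAP2 libraries lay in the range of PBS. OAP2 against PBS was 0.18 (interval -0.15 to 0.51, adjusted p = 0.568), against APAP 0.28 (-0.05 to 0.60, 0.415) and against Oxa 0.18 (-0.15 to 0.51, 0.489). Without OAP2 1 these were 0.01, 0.11 and 0.01, and without OAP2 3 those against PBS and Oxa were both 0.28, none called. Without PBS 1 that against PBS was 0.11. Oxa and PBS differed by -0.00 ± 0.15 in the fit. Ordered by mean, Hexim1 ran OAP2, PBS, Oxa, APAP, and of the neighbouring pairs Oxa and APAP alone did not overlap.

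Larp7, which holds the 3′ end of 7SK (chr3:127536714-127553349, minus strand), read 13.7, 17.7 and 14.5 FPKM in PBS (15.3 ± 2.11, n = 3) and 16.9, 15.4 and 15.0 in Oxa (15.8 ± 1.00). It read 13.9, 12.3 and 11.7 in APAP (12.6 ± 1.10) and 13.1, 11.8 and 13.2 in OAP2 (12.7 ± 0.775). All OAP2 libraries lay below all PBS and all Oxa libraries. The differences did not pass: -0.26 against PBS (interval -0.50 to -0.01, adjusted p = 0.229) and -0.30 against Oxa (-0.55 to -0.06, adjusted p = 0.102). Without PBS 2, the highest library, the difference from PBS was -0.14 (0.404). Oxa against APAP was 0.29 (0.04 to 0.54, 0.108), also without overlap and not called. Larp7 overlaps the Mir302 and Mir367 microRNA genes on the opposite strand, and whether counting used strand is not given in the sources used here.

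Mepce, the enzyme that caps 7SK (chr5:137781906-137787655, minus strand), read 12.7, 13.3 and 10.7 FPKM in PBS (12.2 ± 1.38, n = 3) and 17.0, 17.3 and 16.2 in OAP2 (16.8 ± 0.592). Every OAP2 library lay above every PBS library. Mepce was 1.39-fold higher in OAP2, a log2 difference of 0.47 ± 0.13 (interval 0.20 to 0.74), and passed with an adjusted p of 0.0466. The call ended without PBS 1 (0.0661), PBS 3 (0.143), OAP2 1 (0.118), OAP2 2 (0.142) or OAP2 3 (0.0504), with limma on log2(FPKM + 1) (0.0606), and with only the 6 libraries compared (0.188). Without PBS 2 it was 0.54 (0.0155).

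In Oxa, Mepce read 16.3, 16.8 and 15.6 FPKM (16.3 ± 0.612), above every PBS library, 0.42 ± 0.13 over PBS. In APAP it read 15.1, 10.7 and 13.0 FPKM (12.9 ± 2.16). OAP2 against Oxa was 0.05 (interval -0.22 to 0.32, adjusted p = 0.828). Over APAP, OAP2 stood at 0.35 (0.08 to 0.62, 0.209) and Oxa at 0.30 (0.03 to 0.57, 0.126), both without overlap and not called, the latter at 0.19 without APAP 2. Ordered by mean, Mepce ran OAP2, Oxa, APAP, PBS, and the pair Oxa and APAP separated.

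The kinase fell in OAP2 against PBS, and its cyclins had no call in that comparison. Cdk9 (chr2:32705784-32713076, minus strand) read 20.5, 20.5 and 20.8 FPKM in PBS (20.6 ± 0.189, n = 3) and 15.0, 15.0 and 16.2 in OAP2 (15.4 ± 0.699). It fell 1.32-fold, a log2 difference of -0.40 ± 0.08 (interval -0.58 to -0.23, adjusted p = 0.0115), with every OAP2 library below every PBS library. The call ended without OAP2 1 (0.0572) and with only the 6 libraries compared (0.171).

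Cdk9 read 15.8, 16.5 and 15.4 FPKM in Oxa (15.9 ± 0.546), below every PBS library, at -0.36 ± 0.08 relative to PBS. In APAP it read 17.7, 17.4 and 19.3 FPKM (18.1 ± 1.02), between the other groups and overlapping none of them. The APAP to PBS difference of -0.14 ± 0.08 (interval -0.32 to 0.03) was not called (0.632), nor were OAP2 against APAP (-0.26, interval -0.43 to -0.09, 0.152) or Oxa against APAP (-0.22, interval -0.39 to -0.04, 0.0844). OAP2 and Oxa overlapped (-0.04, interval -0.22 to 0.13, 0.771). Cdk9 had the highest level per length of the 7 genes in PBS and APAP. Its gene holds Mir2861 and Mir3960 on the same strand.

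Ccnt1, cyclin T1 (chr15:98538689-98570923, minus strand), read 9.44, 11.0 and 11.1 FPKM in PBS (10.5 ± 0.940, n = 3), 10.18, 10.16 and 10.04 in APAP (10.1 ± 0.0757), 8.21, 8.59 and 9.17 in Oxa (8.66 ± 0.483), and 9.04, 9.88 and 9.12 in OAP2 (9.35 ± 0.464). Oxa lay below PBS and APAP without overlap. Oxa against PBS was -0.27 ± 0.09 and Oxa against APAP -0.26 ± 0.09 (interval -0.44 to -0.08, adjusted p = 0.0554, not called). OAP2 against PBS was -0.16 (-0.34 to 0.03, 0.327). An annotated antisense gene, 9330020H09Rik, overlaps Ccnt1.

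Ccnt2, cyclin T2 (chr1:127774164-127808061, plus strand), read 8.68, 6.81 and 10.5 FPKM in PBS (8.65 ± 1.83, n = 3), 8.56, 8.75 and 9.80 in APAP (9.04 ± 0.668), 6.79, 5.48 and 6.86 in Oxa (6.38 ± 0.777), and 8.89, 8.06 and 5.94 in OAP2 (7.63 ± 1.52). Oxa lay below APAP in every library, and Ccnt2 was called lower there: 1.45-fold, a log2 difference of -0.54 ± 0.16 (interval -0.88 to -0.20, adjusted p = 0.0366). The call ended in each of the 6 fits that left out 1 of these libraries, with adjusted p between 0.0646 and 0.129. Oxa against PBS was -0.43 ± 0.16 with overlapping groups, since PBS 2 read 6.81. OAP2 against PBS was -0.17 (interval -0.50 to 0.17, 0.616) and OAP2 against Oxa 0.27 (-0.07 to 0.61, 0.298). The first was -0.31 without PBS 2, -0.28 without OAP2 1, -0.03 without PBS 3 and -0.01 without OAP2 3, and the second 0.15 without OAP2 1 and 0.42 without OAP2 3, none called.

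**Figure D2:**
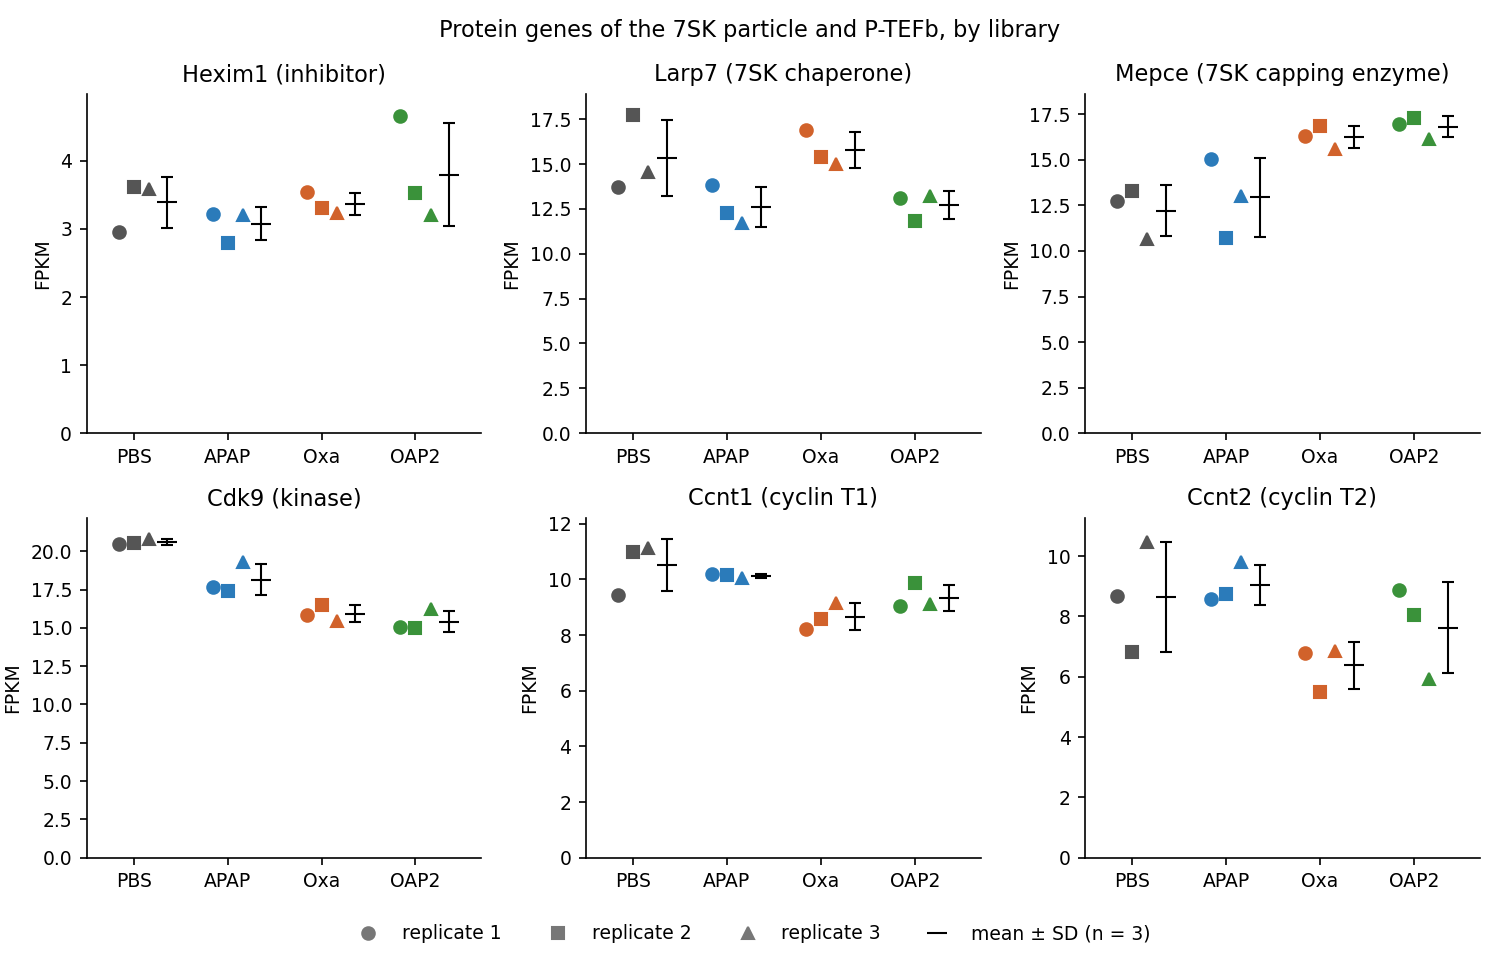
FPKM of Hexim1, Larp7, Mepce, Cdk9, Ccnt1 and Ccnt2 (vertical axes) in each library by group (the shape of a point gives the replicate), with the group mean and SD (n = 3). Cdk9 lies at 20.5 to 20.8 in PBS and 15.0 to 16.2 in OAP2, and Mepce at 10.7 to 13.3 in PBS and 16.2 to 17.3 in OAP2.

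Counted over the comparisons, 33 member values had a test and 3 were called: Cdk9 and Mepce in OAP2 against PBS, and Ccnt2 in Oxa against APAP. In OAP2 against PBS, 1 of 7 was higher and 1 of 7 lower, where 5.25% of all 12036 genes were called (2.14% higher and 3.11% lower), and 4 of 7 did not overlap, where 18.7% of genes did not. This comparison shares its PBS libraries with Oxa against PBS, on which the set was chosen. In Oxa against APAP, 1 of the 6 tested was called, lower, where 15.4% of genes were called and 7.18% lower. There all 7 genes had groups without overlap (4 higher and 3 lower), where 47.8% of all genes did (27.3% higher and 20.4% lower), and the Oxa libraries chose Rn7sk.

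In APAP against PBS edgeR called 0 of 7, 0 had an unadjusted p below 0.05 and DESeq2 and limma called 0. The share called over all genes was 0.0166%, and Cdk9 was the 1 member without overlap, beside 15.9% of all genes. In OAP2 against APAP edgeR called 0 of 7, with 2 at an unadjusted p below 0.05 and 0 called by DESeq2 or limma, where 0.474% of all genes were called. Cdk9, Ccnt1 and Mepce did not overlap there, beside 25.7% of genes. In OAP2 against Oxa edgeR called 0 of the 6 tested, with 1 (Larp7) at an unadjusted p below 0.05 and 0 called by DESeq2 or limma, where 12.9% of genes were called. Larp7 was also the 1 of 7 without overlap, beside 36.1% of genes. In Oxa against PBS 4 of 7 did not overlap, beside 29.1% of genes; nothing is read from that count. The median log2 difference of the 7 was -0.16 in OAP2 against PBS, beside -0.00 over all genes.

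**Figure D3:**
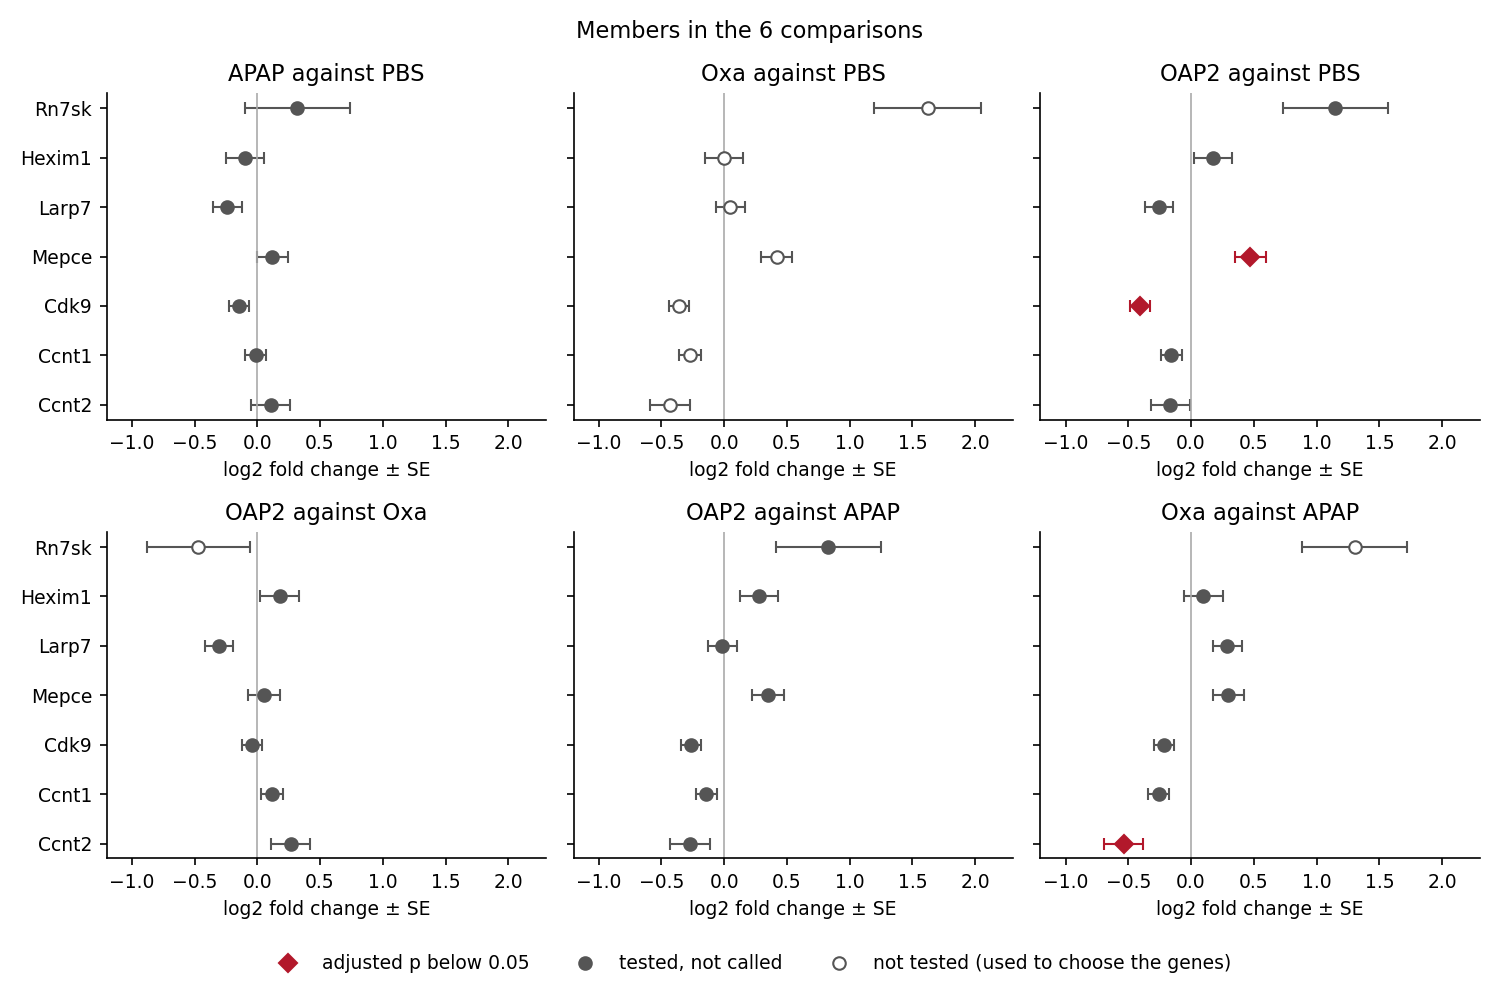
Log2 fold change (horizontal axis, with SE bars) of the 7 members in each of the 6 comparisons; red diamonds are called at an adjusted p below 0.05, filled circles were tested and not called, and open circles have no test. Rn7sk lies farthest to the right in Oxa against PBS (1.62), and the called values are Cdk9 (-0.40) and Mepce (0.47) in OAP2 against PBS and Ccnt2 (-0.54) in Oxa against APAP.

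The balance of inhibitor to kinase, as the ratio of Hexim1 to Cdk9 FPKM within a library, was 0.145, 0.176 and 0.173 in PBS (0.165 ± 0.0172, n = 3) and 0.310, 0.235 and 0.198 in OAP2 (0.248 ± 0.0571). All OAP2 libraries lay above all PBS libraries. APAP had 0.170 ± 0.0111 and Oxa 0.211 ± 0.0120. On the log2 scale OAP2 exceeded PBS by 0.57 and APAP by 0.52, and Oxa exceeded APAP by 0.32. Each of these reached p = 0.1 in a two-sided exact permutation test, the smallest that 3 against 3 libraries can give, and 0.25 after adjustment over the 10 ratio tests. This test cannot give a value below 0.05 here. Without OAP2 1 the excess over PBS was 0.40.

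The ratio of the 2 cyclins, Ccnt1 to Ccnt2, was 1.26 ± 0.312 in PBS, 1.12 ± 0.0881 in APAP, 1.37 ± 0.182 in Oxa and 1.26 ± 0.261 in OAP2 (SD, n = 3). Oxa exceeded APAP by 0.28 on the log2 scale, with groups that did not overlap (exact permutation p = 0.1, adjusted 0.25). The other 4 differences tested for this ratio had an exact p of 0.5 to 1.0.

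The ratio of Mepce to Larp7 was computed after their values had been seen and has no test. It was 0.803 ± 0.107 in PBS, 1.02 ± 0.131 in APAP, 1.03 ± 0.0655 in Oxa and 1.33 ± 0.124 in OAP2, and all OAP2 libraries (1.22 to 1.46) lay above all others (0.734 to 1.11). Rn7sk relative to Cdk9, also without a test, was 0.296 ± 0.126 in PBS, 0.408 ± 0.0775 in APAP, 1.16 ± 0.261 in Oxa and 0.876 ± 0.551 in OAP2. In OAP2 it was 0.556, 1.51 and 0.559, with OAP2 2 above all Oxa libraries (0.892 to 1.41).

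**Figure D4:**
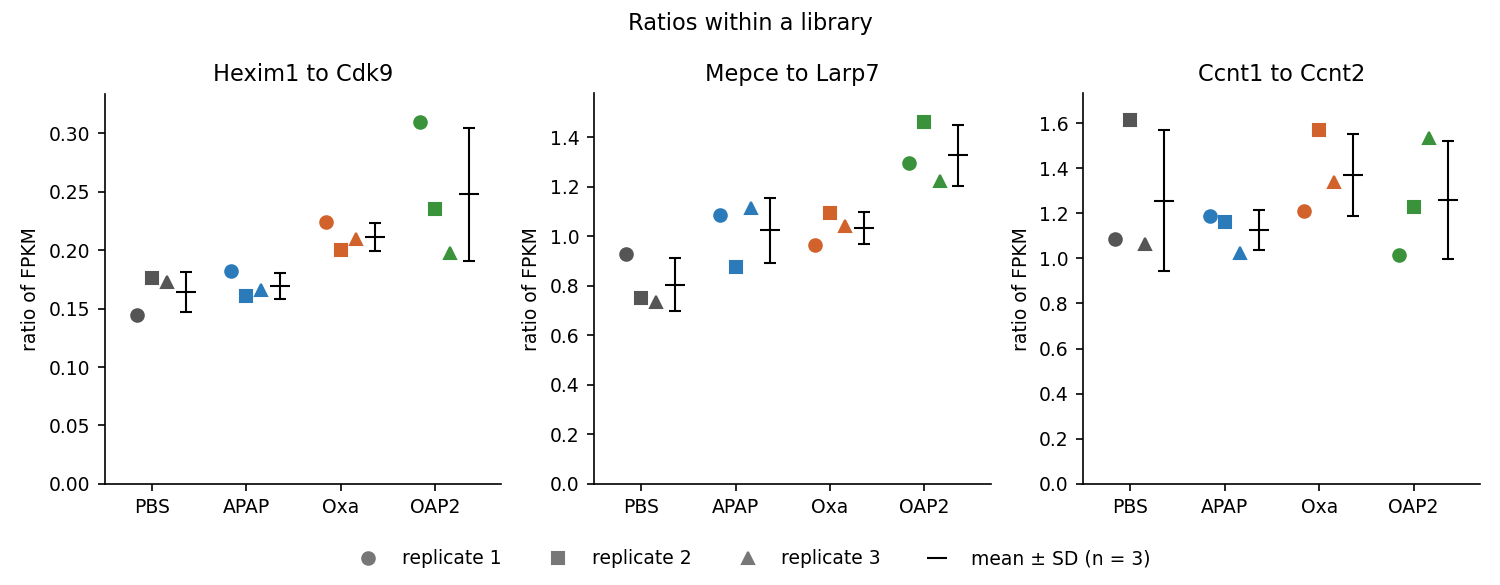
Ratios of FPKM of Hexim1 to Cdk9, Mepce to Larp7 and Ccnt1 to Ccnt2 within each library (the shape of a point gives the replicate) by group, with the group mean and SD (n = 3). Hexim1 to Cdk9 runs from 0.145 to 0.176 in PBS and from 0.198 to 0.310 in OAP2.

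By Pearson correlation of log2 CPM over the 12 libraries, the named genes most like Rn7sk were Zbtb5 (r = 0.92), Hadha (0.91), Dact2 (0.91), Nfatc1 (0.90) and Enpp5 (0.88), out of 12036. Zbtb5, a zinc finger gene, read 1.64 to 2.01 FPKM in PBS, 2.80 to 3.51 in Oxa, and 2.23, 2.66 and 2.03 in OAP2, with replicate 2 highest in Oxa and in OAP2 as for Rn7sk. Nfatc1, a transcription factor of calcium signalling, read 2.46 to 3.02 FPKM in Oxa and 1.59 to 2.23 in PBS. Hadha, an enzyme of mitochondrial fatty acid oxidation, read 11.7 to 11.9 FPKM in Oxa and 9.14 to 9.88 in PBS. Nfatc1 was also highest in replicate 2 within Oxa and within OAP2. Hadha, Dact2 and Enpp5 were highest in replicate 2 within OAP2 but not within Oxa. Of the other members, Mepce correlated with Rn7sk at 0.55, Cdk9 at -0.67, Ccnt1 at -0.65, Ccnt2 at -0.37, Larp7 at -0.10 and Hexim1 at -0.00. The genes most like Hexim1 were Ctbs (0.84), Zscan26 (0.82) and Apmap (0.82), each highest in OAP2 1 as Hexim1 was. These correlations run over libraries that share groups and are given without a test.

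Around the 7 members, 8 lists of 93 genes of the pathway were followed, of which 79 were tested. In OAP2 against PBS 0 rose and 5 fell, 6.33% beside 5.25% of all genes. In Oxa against PBS 5 rose and 7 fell (15.2%), beside 10.1% of all genes (5.35% higher and 4.76% lower). In Oxa against APAP 6 rose and 6 fell (15.2%), beside 15.4% of all genes (8.21% higher). In OAP2 against Oxa 3 rose and 4 fell (8.86%), beside 12.9% of all genes (6.02% higher and 6.91% lower). Without PBS 2, an alternative added after seeing the data, 13 rose and 7 fell in OAP2 against PBS (25.3%, beside 16.4% of all genes), and 13 rose and 10 fell in Oxa against PBS (29.1%, beside 25.5%). In APAP against PBS and in OAP2 against APAP edgeR called 0 of 79, with 8 and 10 at an unadjusted p below 0.05, 0 and 2 called by DESeq2 and 0 and 0 by limma.

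P-TEFb is carried to genes by bromodomain proteins and by the super elongation complex. Of the 12 tested genes of this list, 2 fell and 0 rose in OAP2 against PBS, with a median of -0.05. Without PBS 2 the same 2 fell, Ell rose (0.34, adjusted p = 0.0488) and the median was 0.11. Jmjd6, which encodes a JmjC-domain hydroxylase, fell from 12.1 to 7.60 FPKM (-0.66 ± 0.13, adjusted p = 0.0101), and the elongation factor Ell2 from 3.42 to 2.48 (-0.45 ± 0.12, 0.0396). The call of Jmjd6 ended without OAP2 2 (0.0505), and that of Ell2 in 3 of the 6 fits that left out 1 library, with adjusted p up to 0.140. In Oxa against PBS 2 rose: Ell (0.38, 0.0395) and Mllt3 (0.42, 0.0393), each still called in 1 of 6 such fits. Without PBS 2, 2 of the 12 rose and 1 fell there, beside 25.5% of all genes called.

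Among 13 genes of the pausing factors NELF and DSIF and of the PAF1 complex, which P-TEFb acts on or with, the PAF1 complex gene Ctr9 rose in Oxa. It read 7.01, 8.46 and 7.33 FPKM in PBS and 11.0, 10.1 and 10.6 in Oxa (0.48 ± 0.09, adjusted p = 0.00581), and stood 0.45 ± 0.09 over APAP (0.00519). Both calls held in all 6 fits that left out 1 library. OAP2 was below Oxa in Ctr9 (-0.30, 0.0385) and in the NELF subunit Nelfa (-0.35, 0.0423), calls that held in 0 and 1 of 6 such fits. The other 11 genes had no call in OAP2 against Oxa, and in OAP2 against PBS the edgeR test called 0 of 13, with 4 at an unadjusted p below 0.05 and 1 called by DESeq2. Without PBS 2, 3 of the 13 rose there: the PAF1 complex genes Paf1 (0.28), Ctr9 (0.27) and Rtf1 (0.31). In Oxa against PBS without PBS 2, 2 of the 13 rose and 0 fell.

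Of 11 tested genes for other 7SK-binding proteins and factors that free P-TEFb from 7SK, 3 fell and 0 rose in Oxa against PBS. There 10.1% of all genes were called. Without PBS 2, 3 of the 11 fell and 1 rose, beside 25.5% of all genes called. The RNA-binding protein gene Hnrnpa1, whose product takes up 7SK freed of P-TEFb, read 368, 429 and 342 FPKM in PBS and 238, 229 and 224 in Oxa (-0.71 ± 0.10, adjusted p = 0.00256). It also fell in Oxa against APAP (-0.61, 0.00294), and stood 0.45 ± 0.10 higher in OAP2 than in Oxa (0.0129, and 0.0533 in the highest of 6 fits that left out 1 library). The splicing factor Srsf1 read 95.1 to 96.0 FPKM in PBS and 67.5 to 72.6 in Oxa (-0.46 ± 0.09, 0.00928). Ddx21, an RNA helicase, was at -0.42 (0.0400), and at -0.25 without PBS 2. Hnrnpa1 and Srsf1 kept their calls against PBS and against APAP in all 6 fits that left out 1 library, and Ddx21 kept them in 2 and in 0.

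RNA polymerase III itself transcribes Rn7sk, Rn7s1, Rn7s2 and Rmrp. Of 11 factors of the type of promoter that 7SK has, Bdp1, a subunit of the initiation factor TFIIIB, fell in Oxa from 7.22 to 4.87 FPKM (-0.56 ± 0.11, adjusted p = 0.00973), and Maf1, the repressor of RNA polymerase III, rose from 7.21 to 10.2 (0.51 ± 0.15, 0.0472). Against APAP they stood at -0.54 (0.00881) and 0.67 (0.0107). The call of Maf1 against PBS held in 1 of 6 fits that left out 1 library, the fit without PBS 2 (0.71, adjusted p = 0.000863). The other 3 calls held in all. Of 11 subunits of the polymerase, Polr3c rose in Oxa over PBS (0.45, 0.0420) and over APAP (0.50, 0.0216), each held in 1 of 6 such fits. Over PBS this was again the fit without PBS 2 (0.61, adjusted p = 0.00138). In OAP2 against PBS edgeR called 0 of the 11 factors and 0 of the 11 subunits, with 2 and 3 at an unadjusted p below 0.05 and 1 and 0 called by DESeq2. Without PBS 2 it called 2 of the factors higher, Maf1 (0.43) and Brf2 (0.59), and 4 of the subunits higher, Polr3c (0.47), Polr3e (0.42), Polr3b (0.34) and Polr3g (0.32), and 0 lower. In Oxa against PBS without PBS 2 it called 1 factor higher and 1 lower, and 1 subunit higher and 1 lower.

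The list of 9 other transcription kinases and cyclins gave no edgeR call in any of the 6 comparisons with all libraries, with differences from -0.23 to 0.37. At most 2 of the 9 had an unadjusted p below 0.05 in a comparison, and DESeq2 called 1 in Oxa against PBS and 0 elsewhere. The highest value in OAP2 against PBS was that of the Mediator kinase Cdk19 (0.37 ± 0.13) and the lowest that of Cdk7, the kinase of TFIIH (-0.23 ± 0.14), neither called, and at 0.24 and -0.15 without PBS 2. Without PBS 2 edgeR called Cdk12 higher there (0.39, adjusted p = 0.0102). In Oxa against PBS without PBS 2 it called 2 of the 9 higher and 0 lower.

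The last list held 9 short-lived mRNAs known to depend on P-TEFb. In OAP2 against PBS 3 fell and 0 rose, beside 5.25% of all genes called. All 9 had a negative value, with a median of -0.49. That shared sign rested on PBS 2: without it 5 of 9 were negative and 4 positive (Ier2, Ier3, Egr1 and Fos), with a median of -0.29. Ier2 read 50.7, 48.9 and 50.9 FPKM in OAP2, and 39.4, 79.1 and 38.5 in PBS. Without PBS 2, 5 of the 9 fell (Fosl1, Myc, Junb, Jun at -0.58 and Mcl1 at -0.29) and Ier2 rose (0.38, adjusted p = 0.00843). These calls made up 66.7% of the list, beside 16.4% of all genes. Fosl1, a component of the AP-1 transcription factor, read 108, 128 and 105 FPKM in PBS and 43.7, 47.0 and 53.3 in OAP2 (-1.23 ± 0.17, adjusted p = 0.00151), a call that held in all 6 fits that left out 1 library. The oncogene Myc read 286, 310 and 308 FPKM in PBS and 210, 218 and 238 in OAP2 (-0.43 ± 0.09, 0.0120, and 0.0559 without OAP2 1). Junb, another AP-1 gene, was at -0.90 ± 0.22 (0.0326), and at -0.45 without PBS 2, whose 193 FPKM stood above the 93.3 and 91.2 of the other PBS libraries.

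In Oxa against PBS 3 of the 9 fell and 0 rose, beside 10.1% of all genes called. Without PBS 2, 4 fell and 4 rose (88.9% of the list), beside 25.5% of all genes. Egr1, an early response factor, fell from 4.29, 17.7 and 3.68 FPKM in PBS to 1.47, 1.23 and 1.15 (-2.73 ± 0.48, adjusted p = 0.00555, and -1.62 without PBS 2). Fosl1 (-0.87, 0.00797) and the survival gene Mcl1 (-0.41, 0.00691) also fell. Myc read 355, 368 and 345 FPKM in Oxa, above every APAP library (0.45 ± 0.09, 0.00515), and OAP2 stood below Oxa (-0.68 ± 0.09, 0.000522), calls that held in all 6 fits that left out 1 library. In Oxa against APAP, Ier3 was higher (1.11, 0.0475) but in none of such fits, while Egr1 (-2.16) and Mcl1 (-0.41) were lower. OAP2 exceeded Oxa in Egr1 (2.04, 0.0135) and was below it in Junb (-0.78, 0.0361), calls that held in 4 and 0 of 6 such fits.

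**Figure D5:**
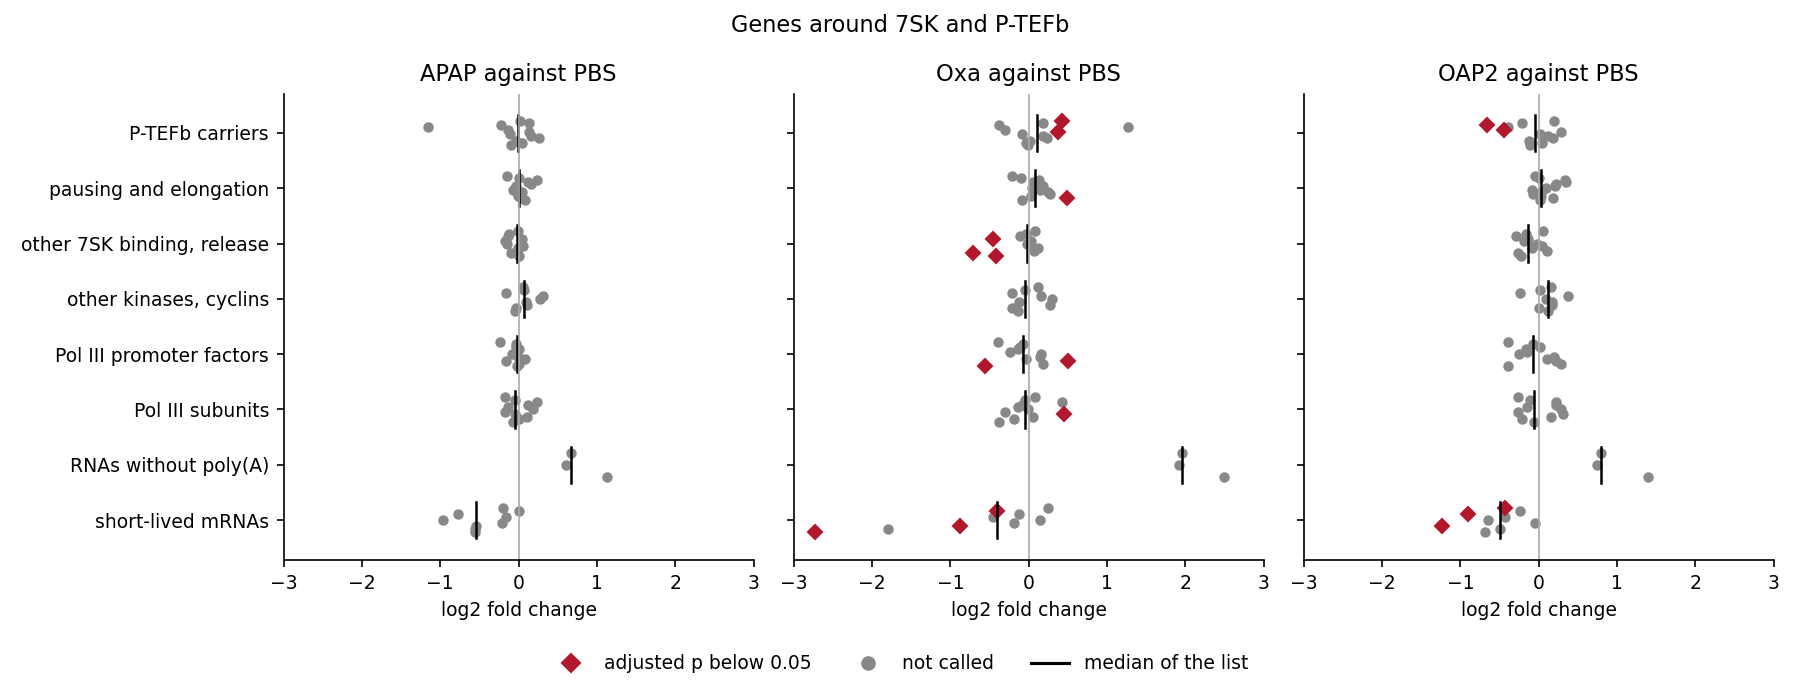
Log2 fold change (horizontal axis) of each tested gene of the 8 pathway lists (rows) in APAP, Oxa and OAP2, each against PBS; red diamonds are called at an adjusted p below 0.05, grey circles are not, and black bars mark each list's median. Fosl1 lies at -1.23 in OAP2 against PBS; the 9 short-lived mRNAs all lie below 0 there, but without PBS 2 only 5 do.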

How the data were processed

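RNA from 12 libraries was sequenced after oligo(dT) selection, with U-labelled second strands, per the labels' protocols. The authors' deposited table gives FPKM and estimated counts (whole numbers, as StringTie derives them) per gene; the submitters' processing notes name cutadapt 1.9, HISAT2 2.2.1, StringTie 2.1.6 and the build mm9, but the positions of all 7 members are those of GRCm38 in GENCODE M21. Columns named CON were taken as PBS, the only group without a drug label. The 12036 genes that reached 1 FPKM in 3 or more libraries were tested on the estimated counts with edgeR 4.0.16 in R 4.3.3: TMM scaling, quasi-likelihood fit, 1 mean for each of 4 groups, all 12 libraries, Benjamini-Hochberg adjustment, calls below 0.05. The fit was tested on simulated data. Standard errors are the log2 change divided by the root of F. The authors' notes also name DESeq2 and edgeR without a version. DESeq2 1.42.0, limma 3.58.1, other filters, scalings and left-out libraries were alternatives. Copies of 7SK were sought with blastn 2.17.0. The labels do not say that replicates were separate cultures or animals, so each p-value reflects the spread among libraries alone, which may be technical.

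The members and the gene lists were chosen with earlier results of these data known. Named were the 7 members, up to 4 called genes of each list per comparison with the largest F (where none was called, the 2 with the largest F, given for 1 list), the 5 and 3 genes most correlated with Rn7sk and Hexim1 (unnamed and predicted genes left out), and listed RNAs without poly(A) of mean FPKM of at least 1. Over all tested genes together, libraries of equal number did not pair: of 18 same-number pairs 1 correlated above 0.1, with a range of -0.15 to 0.16. This check cannot decide whether single RNAs such as Rn7sk shared a preparation effect by number. No per-sample column was left out.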

Additional observations from a re-analysis of the deposited data

How the results depend on the processing

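Counts of members called are those most open to the processing. In OAP2 against PBS 2 were called, and 1 with limma on log2(FPKM + 1), with limma on log2(FPKM + 0.1) and with no filter on low values, 0 with only the 6 libraries compared, and 0 to 2 with 1 library left out; DESeq2 called 3. In Oxa against APAP 1 was called, and 2 with RLE size factors and with FPKM of at least 5. DESeq2 called 3 there, and edgeR on only the 6 libraries called 5. Both limma settings, no filter, and any 1 library left out gave 0. Calls over all genes moved with these settings too. In Oxa against APAP they were 1852 in the main fit, 2531 with DESeq2 and 4409 with only the 6 libraries. In OAP2 against PBS they were 632, 1267 and 38 in the same order. With the replicate number as a block, 1 was called in OAP2 against PBS (Mepce at 0.0507 was lost) and 1 in Oxa against APAP. Over all tested genes together the numbers did not pair the libraries (1 of 12 correlated best with its own number). In the other tested comparisons 0 were called under every setting. Of the member values under alternatives, 540 were counted as unchanged, 21 lost a call and 9 gained one. Another 1 moved (Rn7sk in OAP2 against Oxa, -1.10 without OAP2 2), and 11 values with a test changed sign. A tested value counted as unchanged if it kept direction and side of the threshold. A value without a test did so if it stayed within 1 SD, taken from its SE, of the main value. Some of the latter changed sign: with 1 library left out, Hexim1 in Oxa against PBS ran from -0.0850 to 0.0531 and Larp7 from -0.0192 to 0.169. The sign changes were in small differences. Ccnt1 in APAP against PBS was at 0.00246 with FPKM of at least 5 and at -0.0775 to 0.0223 with 1 library left out, Mepce there at -0.00831 to 0.232 and Ccnt2 at -0.0375 to 0.242. Cdk9 in OAP2 against Oxa was at -0.0832 to 0.0246 with 1 library left out. Larp7 in OAP2 against APAP was at 0.0135 and 0.0145 with limma and at -0.0793 to 0.0607 with 1 library left out. Among the other genes, Maf1 in APAP against PBS ran from -0.300 to 0.0408 and Rn7s2 in OAP2 against PBS from -0.00952 to 1.63. In OAP2 against APAP, Rmrp was at -0.0450 and -0.18 with the 2 limma settings, at -0.18 with the replicate block and at -0.981 to 0.703 with 1 library left out, and Rn7s1 at -0.0241, -0.0399, -0.0480 and -0.651 to 0.421. Leaving out each library for the ratios was added after seeing the data: on the log2 scale Hexim1 to Cdk9 in APAP against PBS ran from -0.0418 to 0.101, and Ccnt1 to Ccnt2 from -0.240 to 0.0615 in APAP against PBS, -0.142 to 0.207 in OAP2 against PBS, -0.288 to 0.00910 in OAP2 against Oxa and -0.00790 to 0.289 in OAP2 against APAP; the other 5 ratio differences kept their sign. The cause of these changes was not tested. Over all genes, the main count called and its range over alternatives were 2 (0 to 97) in APAP against PBS, 1217 (477 to 3066) in Oxa against PBS, 632 (38 to 1976) in OAP2 against PBS, 1557 (688 to 2148) in OAP2 against Oxa, 57 (0 to 506) in OAP2 against APAP and 1852 (840 to 4409) in Oxa against APAP. The counts of 83 to 620 behind Rn7sk limit its precision.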
